A study of Homo sapiens with 6 samples.

Results

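The data below are for 10 genes of iron handling and of protection from ferroptosis in A498 cells, a human line from a clear cell kidney carcinoma. They were chosen by symbol from the 61860 genes of the count table: TFRC, SLC11A2 and STEAP3 (iron uptake), SLC40A1 (iron export), NCOA4 (ferritin turnover), IREB2 and ACO1 (iron sensing), GPX4 and AIFM2 (control of lipid peroxides) and ACSL4 (supply of peroxidable lipid). All 10 were found in the table and 9 had enough counts to be tested. RNA sequencing libraries of PTPRZ-Si cells, in which the labels name a knockdown of PTPRZ1 by siRNA, were compared with those of PTPRZ-nc cells, the control for the knockdown, for which the labels name a plasmid. Each group had 3 libraries, and both were A498 cells grown in MEM with fetal bovine serum and transfected. A difference between plasmid and siRNA cannot be told apart from the knockdown. The line is a single tumour line, and the labels do not say whether replicates were separate cultures, so the spread that the p-values measure may be technical. In bulk RNA, fewer cells of a kind and less RNA per cell cannot be told apart.

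Cells take up iron when transferrin binds the transferrin receptor TFRC and is carried into endosomes, where a reductase such as STEAP3 makes ferrous iron that the transporter SLC11A2 (DMT1) moves into the cytosol. Iron is stored in ferritin, made of FTH1 and FTL chains, is released when NCOA4 carries ferritin to lysosomes, and leaves the cell through ferroportin (SLC40A1). The iron regulatory proteins IRP1 (ACO1) and IRP2 (IREB2) bind hairpins in mRNAs, the iron responsive elements, when iron is scarce: a hairpin ahead of the coding sequence blocks translation, and hairpins behind that of TFRC protect its mRNA. Ferrous iron drives the peroxidation of polyunsaturated phospholipids, and cells die by ferroptosis when the peroxides are not removed. GPX4, a selenoprotein, reduces these peroxides with glutathione, AIFM2 (FSP1) regenerates ubiquinol that traps lipid radicals, and ACSL4 activates the fatty acids that are built into peroxidable phospholipids. Clear cell kidney cancer cells are known for their sensitivity to loss of GPX4.

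Matches to a strict pattern of the hairpins that the 2 sensor proteins bind are shown. Such hairpins link the sensor genes to the uptake, storage and export genes below. Transcripts of GENCODE release 29 (GRCh38) were searched in their untranslated regions for a bulged C, 5 bases, the loop CAGTGN and 5 bases that pair with those before the loop, with G-T pairs allowed and at least 3 of 5 pairs below the bulge. A match occurred in 49 of 19922 coding genes (0.246%). Of the 10 genes, TFRC had 4 matches and SLC40A1 had 1, and FTH1 and FTL had 1 each. Each sequence is 27 bases long and the capitals mark the loop of 6 bases. No match in a gene says only that this pattern is not in its annotated untranslated regions.
TFRC 3' match 1 (chr3:196050980-196051006, minus strand): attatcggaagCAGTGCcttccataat
TFRC 3' match 2 (chr3:196050576-196050602, minus strand): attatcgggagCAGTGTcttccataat
TFRC 3' match 3 (chr3:196050511-196050537, minus strand): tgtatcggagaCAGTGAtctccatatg
TFRC 3' match 4 (chr3:196050464-196050490, minus strand): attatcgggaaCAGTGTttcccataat
SLC40A1 5' region (chr2:189580662-189580688, minus strand): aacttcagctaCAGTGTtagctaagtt
FTH1 5' region (chr11:61967575-61967601, minus strand): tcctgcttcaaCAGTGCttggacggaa
FTL 5' region (chr19:48965336-48965362, plus strand): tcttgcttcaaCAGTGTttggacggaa

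Total counts in genes ran from 13726908 to 21469746 per library. PTPRZ1 had 0 counts in each of the 6 libraries, which sets a ceiling of 0.05305 CPM (library-scaled counts, with TMM factors) over the PTPRZ-Si libraries and 0.06054 CPM over the PTPRZ-nc libraries at 3 counts, so the knockdown could not be checked by its target and all directions rest on the labels. Of 8 markers of renal epithelium 7 were tested, 6 were higher and 1 (LHX1) was lower in PTPRZ-Si. Of all tested genes 14% were higher and 13.4% lower. EPCAM, with 19 counts over the 6 libraries, was not tested. The 8 markers summed to 2408 to 2483 CPM in PTPRZ-Si and 1925 to 1976 CPM in PTPRZ-nc. Most of this sum was KRT8, at a mean of 1315 CPM in PTPRZ-Si and 1198 CPM in PTPRZ-nc. The defining marker genes PTPRC of leukocytes and HBB of erythroid cells were at 0 in every library, and the 8 erythroid markers summed to 0.768 to 1.603 CPM in PTPRZ-Si and 0.4267 to 0.8038 CPM in PTPRZ-nc. The 7 fibroblast markers summed to 24.67 to 27.12 CPM in PTPRZ-Si and 35.28 to 45.82 CPM in PTPRZ-nc, and the 5 endothelial markers to 1.918 to 2.579 CPM in PTPRZ-Si and 1.227 to 1.754 CPM in PTPRZ-nc. Most of the fibroblast sum was COL1A1, at a mean of 22.02 CPM in PTPRZ-Si and 35.08 CPM in PTPRZ-nc. PDGFRA, PDGFRB, DCN, LUM and COL1A2 had 0 to 30 counts each over the 6 libraries. The 8 leukocyte markers, 3 of them at 0, summed to 2.112 to 2.62 CPM in PTPRZ-Si and 2.294 to 3.154 CPM in PTPRZ-nc. The part of these shifts in the results below was not tested.

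In PTPRZ-Si cells both sensor genes, both guards against lipid peroxides, ACSL4 and SLC11A2 were higher and TFRC was lower, with none above 1.288-fold. By edgeR's quasi-likelihood test, with a limit of 0.05 on the adjusted p, 6 of the 9 tested genes rose, 1 fell and 2 did not pass. Among all 15476 tested genes 27.4% were called, 14% higher and 13.4% lower. The 9 genes were well counted, and of the 4900 genes with at least the mean of AIFM2 (47.94 CPM), the least counted of them, 44.1% were called, 22.9% higher and 21.2% lower. The groups did not overlap in CPM for 7 of the 9 genes, against 40.8% of all tested genes and 56.6% of the 4900. The median log2 fold change was 0.18 over the 9 genes and 0.001 over all tested genes. Its median size was 0.18 over the 9 genes and also 0.18 over all tested genes.

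**Figure D1:**
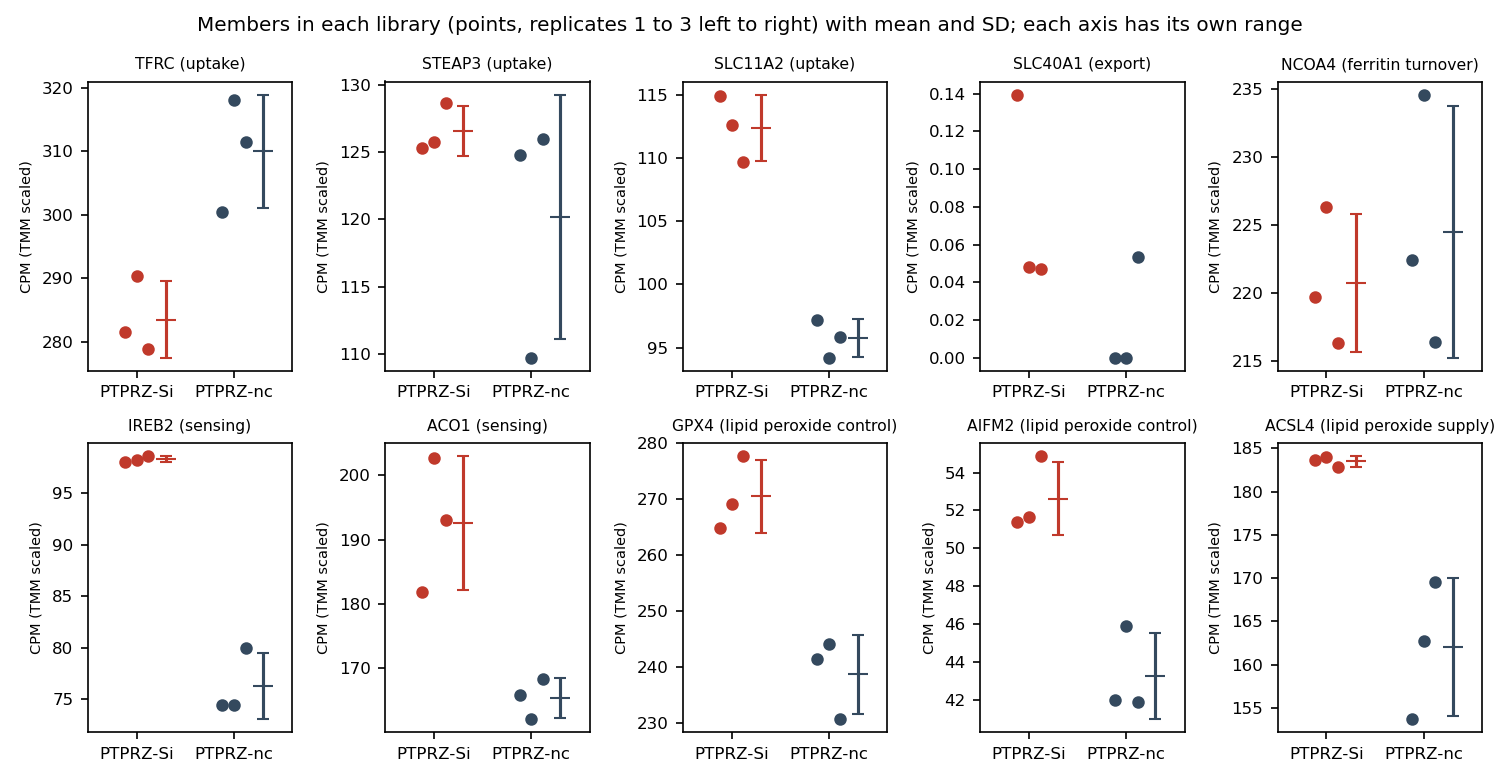
CPM of each of the 10 genes (vertical axes, each with its own range, most not starting at 0) in the PTPRZ-Si and PTPRZ-nc libraries; points are libraries and the lines with caps are the mean and SD (n = 3, not drawn for SLC40A1). For 7 of the 9 tested genes no PTPRZ-Si point lies within the range of the PTPRZ-nc points; those of STEAP3 and NCOA4 overlap.

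IREB2 (ENSG00000136381, chromosome 15 from 78437431 to 78501456, plus strand, GRCh38) encodes IRP2, which is controlled by its degradation when iron is plentiful. Its level was 98.08, 98.26 and 98.61 CPM in the PTPRZ-Si libraries, against 74.42, 74.39 and 79.96 CPM in the PTPRZ-nc libraries. The 3 PTPRZ-Si values were almost alike and above every PTPRZ-nc value. IREB2 rose 1.288-fold (log2 fold change 0.37, SE 0.0505, edgeR adjusted p = 3.63e-05), the smallest p and the largest fold among the 9 genes.

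ACO1 (ENSG00000122729, chromosome 9 from 32384603 to 32454769, plus strand) encodes IRP1, a protein that is a cytosolic aconitase when it holds an iron-sulfur cluster and binds RNA when it does not. It had 181.9, 202.7 and 193.1 CPM in PTPRZ-Si and 165.9, 162.1 and 168.3 CPM in PTPRZ-nc. The groups did not overlap, although the first PTPRZ-Si library was closer to PTPRZ-nc than the other two. ACO1 rose 1.165-fold (log2 fold change 0.22, SE 0.0472, edgeR adjusted p = 0.00201). The genes of both RNA-binding sensors were thus higher. The counts do not show how much of either protein was present or bound to RNA.

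Of 10 further listed genes, among them FBXL5, the ubiquitin ligase subunit that removes IRP2 when iron is plentiful, 0 rose and 0 fell in edgeR's test. Of all tested genes 27.4% were called. Of these 10 further genes 1 had an unadjusted p under 0.05 and DESeq2 called 1. This list, with IREB2 and ACO1, gave 2 calls here and 3 in 7 of 14 alternatives. The added call was a fall without PTPRZ-nc replicate 3 and a rise in the rest of these alternatives. CIAO2B, of the assembly of cytosolic iron-sulfur proteins and named after its value was seen, was close to the limit here (log2 fold change 0.28, SE 0.105, edgeR adjusted p = 0.0534). FBXL5, named after its value was seen, had 73.99 ± 1.61 CPM in PTPRZ-Si and 75.59 ± 3.01 CPM in PTPRZ-nc (SD, n = 3 each; log2 fold change -0.03, SE 0.053, edgeR adjusted p = 0.711).

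TFRC (ENSG00000072274, chromosome 3 from 196027183 to 196082189, minus strand), the receptor whose 4 matches to the strict pattern are shown above, had 281.5, 290.3 and 278.8 CPM in PTPRZ-Si, against 300.4, 318.1 and 311.4 CPM in PTPRZ-nc. Every PTPRZ-Si library was below every PTPRZ-nc library. TFRC was 0.9149 of its PTPRZ-nc level (log2 fold change -0.13, SE 0.0404, edgeR adjusted p = 0.0248), the only fall among the 9 genes that passed. Its call was the least stable: the edgeR adjusted p was 0.0971 without PTPRZ-Si replicate 1, 0.106 without PTPRZ-Si replicate 3 and 0.0529 without PTPRZ-nc replicate 3, in a range of 0.0106 to 0.106 over 14 alternatives, in which the direction held. Its 4 matches were in 3 of 5 annotated coding transcripts. The promoter window of TFRC (250 bases before to 50 after the start, RefSeq, GRCh38.p14) holds ACGTG, the core that hypoxia-inducible factors bind, 88 bases before the start, in capitals here with 8 bases on either side (chr3:196082166-196082186, minus strand).
TFRC promoter: gcgagcgtACGTGcctcagga

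Searched on both strands, ACGTG was in 3 of 17 listed promoters of the 10 genes and in 21.4% of 35116 promoters. The other 2 are promoters of GPX4, which rose while TFRC fell, and both hold the same site (chr19:1103830-1103850). A match describes the letters only. The factor genes themselves moved in opposite directions: HIF1A had 535 ± 0.911 CPM in PTPRZ-Si and 359.3 ± 30.6 CPM in PTPRZ-nc (SD, n = 3 each; log2 fold change 0.57, edgeR adjusted p = 2.16e-07), and EPAS1, encoding HIF-2α, had 211.8 ± 5.28 CPM in PTPRZ-Si and 258.6 ± 6.05 CPM in PTPRZ-nc (log2 fold change -0.29, edgeR adjusted p = 5.51e-05).

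SLC11A2 (ENSG00000110911, chromosome 12 from 50979401 to 51028566, minus strand) encodes the transporter of ferrous iron across the endosomal membrane. It had 114.9, 112.6 and 109.7 CPM in PTPRZ-Si and 97.2, 94.2 and 95.86 CPM in PTPRZ-nc. The lowest PTPRZ-Si library was above the highest PTPRZ-nc library. SLC11A2 rose 1.173-fold (log2 fold change 0.23, SE 0.0471, edgeR adjusted p = 0.00138). Its mRNA is made with and without an iron responsive element, and counts summed by gene do not tell these forms apart. The strict pattern above was not found in it.

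STEAP3 (ENSG00000115107, chromosome 2 from 119223831 to 119265652, plus strand), the endosomal ferrireductase, did not pass. It had 125.3, 125.8 and 128.7 CPM in PTPRZ-Si, and 124.8, 109.7 and 126 CPM in PTPRZ-nc. The second PTPRZ-nc library was low and the other two were at the PTPRZ-Si level. The log2 fold change was 0.07 with a 95% interval from -0.04 to 0.19 (edgeR adjusted p = 0.349). An antisense gene, STEAP3-AS1, shares 11% of the exon bases of STEAP3 and had 82 counts over the 6 libraries. The counting did not use strand.

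The other uptake genes included more falls than rises. Of 15 further listed genes 10 were tested, 1 rose, 3 fell and 6 did not pass. Called shares were 27.4% of all tested genes and 44.1% of the 4900 well counted ones, so these few calls do not set uptake apart. SLC39A14 (ZIP14), which takes up iron that is not bound to transferrin as well as zinc and manganese, fell to 177.8 ± 1.23 CPM in PTPRZ-Si, against 229.5 ± 9.54 CPM in PTPRZ-nc (SD, n = 3 each; log2 fold change -0.37, SE 0.0436, edgeR adjusted p = 7.31e-06). Its relative SLC39A8 (ZIP8) fell to 46.38 ± 3.5 CPM, against 57.91 ± 1.45 CPM in PTPRZ-nc (log2 fold change -0.32, SE 0.0655, edgeR adjusted p = 0.00137). LRP1, an endocytic receptor that also takes up heme bound to hemopexin, fell by 0.16 on the log2 scale (SE 0.0379, edgeR adjusted p = 0.00344). STEAP1 rose (0.24, SE 0.0807, edgeR adjusted p = 0.0337) but passed in 7 of 14 alternatives; its edgeR adjusted p was 0.183, 0.0905, 0.082 and 0.0931 without PTPRZ-Si replicate 2, PTPRZ-Si replicate 3, PTPRZ-nc replicate 1 and PTPRZ-nc replicate 3, in a range of 0.0222 to 0.183.

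SLC40A1 (ENSG00000138449, chromosome 2 from 189560579 to 189583758, minus strand), the iron exporter ferroportin, was close to absent from the counts. It had 2, 1 and 1 counts in the PTPRZ-Si libraries and 0, 0 and 1 in the PTPRZ-nc libraries. With 4 counts against 1 it was not tested, and no fold is given. A level of 3 counts is 0.1403 to 0.2192 CPM in a single library, for counting error only. A fall of ferroportin mRNA, or a change that stays near this level, was therefore not detectable at this depth. Other genes of export had few counts too: HEPH, the ferroxidase hephaestin, had 43 and HAMP, which encodes hepcidin, 0 over the 6 libraries, both untested. CP, the ferroxidase ceruloplasmin, named after its value was seen, was well counted and did not pass (335.1 ± 9.79 CPM in PTPRZ-Si and 348.6 ± 10.4 CPM in PTPRZ-nc, SD, n = 3 each; log2 fold change -0.06, SE 0.0406, edgeR adjusted p = 0.325). Of the 11 tested genes of export and systemic control, 1 rose, the receptor ACVR1 (0.30, SE 0.0573, edgeR adjusted p = 0.000729). The share called among all tested genes was 27.4%.

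NCOA4 (ENSG00000266412, chromosome 10 from 46005088 to 46030714, minus strand), the cargo receptor that delivers ferritin to lysosomes, did not pass. It had 219.7, 226.3 and 216.3 CPM in PTPRZ-Si and 222.4, 234.6 and 216.4 CPM in PTPRZ-nc. The ranges overlapped, and the log2 fold change was -0.02 with a 95% interval from -0.12 to 0.07 (edgeR adjusted p = 0.746). A change within that interval was not detectable here.

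The ferritin chains themselves differed in how firmly they were measured. FTL had 3949 ± 128 CPM in PTPRZ-Si and 3584 ± 39 CPM in PTPRZ-nc (SD, n = 3 each) and rose (log2 fold change 0.14, SE 0.0295, edgeR adjusted p = 0.00177). FTH1 had 2126, 2058 and 2167 CPM in PTPRZ-Si and 2078, 1467 and 2086 CPM in PTPRZ-nc. The second PTPRZ-nc library was far below the other two, and FTH1 did not pass (0.17, SE 0.086, edgeR adjusted p = 0.154); without PTPRZ-nc replicate 2 it was at 0.02 (edgeR adjusted p = 0.583). FTH1 shares 62.4% of its annotated exon bases with BEST1 on the other strand, and both chains have many pseudogenes, so their counts are uncertain.

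Heme handling held the 2 largest rises among the genes named here. HMOX1, heme oxygenase, which frees iron from heme, had 278.7, 279.3 and 275.8 CPM in PTPRZ-Si and 161.9, 161.8 and 153.5 CPM in PTPRZ-nc (log2 fold change 0.81, SE 0.0418, edgeR adjusted p = 4.64e-10). SLC48A1 (HRG1), which moves heme out of lysosomes, had 147.2, 146.6 and 140.9 CPM in PTPRZ-Si, against 80.14, 67.01 and 82.63 CPM in PTPRZ-nc (0.91, SE 0.0636, edgeR adjusted p = 1.63e-08). The groups were far apart for both genes. Of 14 listed genes of ferritin, heme and storage other than NCOA4, 11 were tested, 3 rose (HMOX1, SLC48A1 and FTL), 0 fell and 8 did not pass. The share called among all tested genes was 27.4%.

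GPX4 (ENSG00000167468, chromosome 19 from 1103926 to 1106791, plus strand), the phospholipid hydroperoxide peroxidase, had 264.8, 269.1 and 277.7 CPM in PTPRZ-Si and 241.4, 244.1 and 230.7 CPM in PTPRZ-nc. All PTPRZ-Si libraries were above all PTPRZ-nc libraries. GPX4 rose 1.134-fold (log2 fold change 0.18, SE 0.0416, edgeR adjusted p = 0.00336). Per exon length it was the highest of the 10 genes, at 584.9 ± 16.7 TPM in PTPRZ-Si and 520.5 ± 12.5 TPM in PTPRZ-nc (SD, n = 3 each).

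AIFM2 (ENSG00000042286, chromosome 10 from 70098223 to 70132934, minus strand), the ubiquinone reductase FSP1, had 51.38, 51.65 and 54.87 CPM in PTPRZ-Si, against 42, 45.89 and 41.87 CPM in PTPRZ-nc. The groups did not overlap. AIFM2 rose 1.22-fold (log2 fold change 0.29, SE 0.0637, edgeR adjusted p = 0.00266), and its call held in each of 14 alternatives. Its promoter window holds TGACNNNGC, the antioxidant response element that NRF2 binds, on the strand opposite to the gene, 22 bases before the start, in capitals with 8 bases on either side (chr10:70132831-70132855, minus strand, RefSeq, GRCh38.p14).
AIFM2 promoter: gcacgagtGCTGAGTCAcgccccgc

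That element, searched on both strands, was in 2 of the 17 promoters of the 10 genes (1 of AIFM2 and 1 of NCOA4, which did not pass) and in 13.3% of 35116 promoters, which describes the letters only. NFE2L2, which encodes NRF2, rose (254.8 ± 9.25 CPM in PTPRZ-Si and 204.4 ± 15.4 CPM in PTPRZ-nc, SD, n = 3 each; log2 fold change 0.32, edgeR adjusted p = 0.000193), as did its inhibitor KEAP1 (0.19, edgeR adjusted p = 0.0062).

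ACSL4 (ENSG00000068366, chromosome X from 109624244 to 109733403, minus strand), which favours arachidonic acid, had 183.6, 184 and 182.8 CPM in PTPRZ-Si and 153.7, 162.7 and 169.6 CPM in PTPRZ-nc. The PTPRZ-Si libraries were close together and above a wider PTPRZ-nc range. ACSL4 rose 1.132-fold (log2 fold change 0.18, SE 0.0458, edgeR adjusted p = 0.00738). Without PTPRZ-nc replicate 1 the edgeR adjusted p was 0.0519, in a range of 0.00288 to 0.0519 over 14 alternatives. ACSL4, whose product promotes ferroptosis, and GPX4, whose product opposes it, were thus higher by nearly the same fold.

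**Figure D2:**
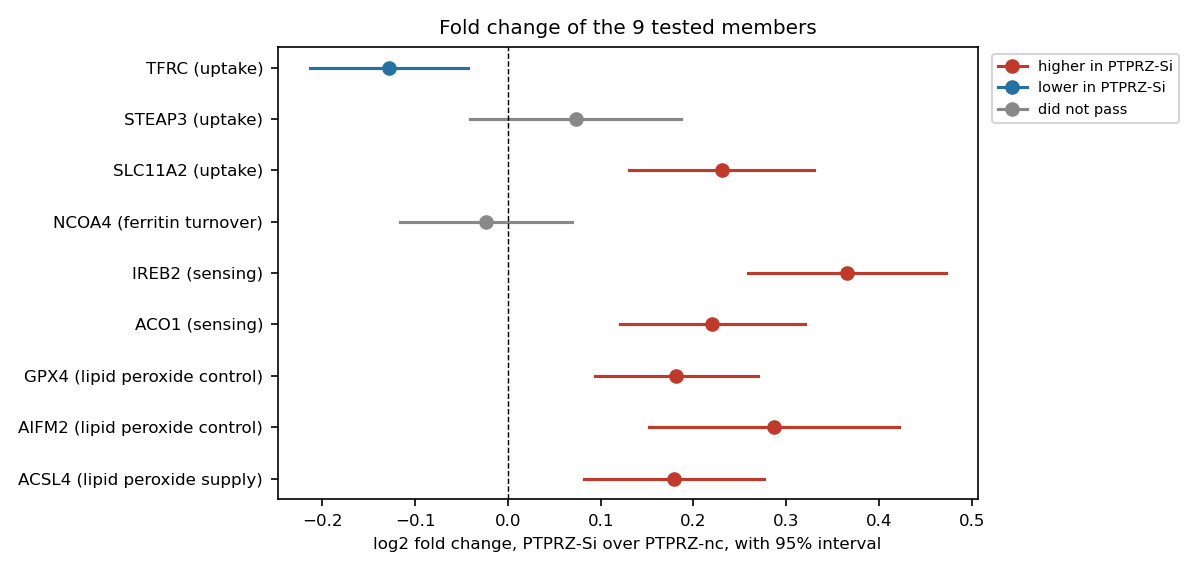
Log2 fold change of the 9 tested genes, PTPRZ-Si over PTPRZ-nc, with 95% intervals from edgeR's quasi-likelihood test (not adjusted for the number of genes). Both sensors, SLC11A2, GPX4, AIFM2 and ACSL4 lie above 0 and TFRC below it; the intervals of STEAP3 and NCOA4 include 0.

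The levels of the genes relative to one another can be compared per exon length. In PTPRZ-Si the order was GPX4, NCOA4 (236.2 ± 3.3 TPM), TFRC (156.9 ± 1.86), ACSL4 (124.8 ± 0.897), STEAP3 (121.1 ± 2.53), ACO1 (111.2 ± 5.19), SLC11A2 (48.38 ± 1.16), AIFM2 (44.75 ± 1.91) and IREB2 (39.71 ± 0.419 TPM, SD, n = 3 each). In PTPRZ-nc the levels were 242.3 ± 8.97 TPM for NCOA4, 173.1 ± 5.19 for TFRC, 111.2 ± 6.02 for ACSL4, 116 ± 9.19 for STEAP3, 96.42 ± 2.32 for ACO1, 41.56 ± 0.716 for SLC11A2, 37.09 ± 1.84 for AIFM2 and 31.08 ± 1.5 TPM for IREB2 (SD, n = 3 each). ACSL4 and STEAP3 changed places between the groups and lay within their spread of each other in PTPRZ-nc. The mRNA of ACO1 was above that of IREB2 in both groups. The lengths are those of all annotated exons, so TPM understates genes with long rarely used exons.

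**Figure D3:**
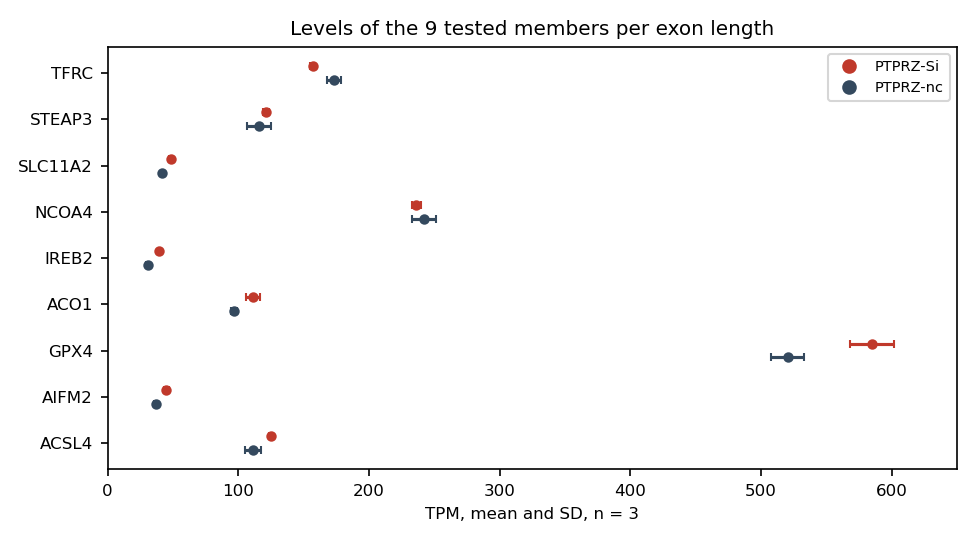
TPM (horizontal axis from 0) of the 9 tested genes in PTPRZ-Si and PTPRZ-nc, as means with SD (n = 3 each). GPX4 is highest in both groups, at 584.9 TPM in PTPRZ-Si and 520.5 TPM in PTPRZ-nc, and NCOA4 follows at 236.2 TPM in PTPRZ-Si and 242.3 TPM in PTPRZ-nc.

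Genes listed for glutathione and cystine supply were higher or did not pass, but 1 of the rises, CHAC1, is not a supply gene. Of 10 listed genes other than GPX4, 4 rose, 0 fell and 6 did not pass, where 27.4% of all tested genes were called. GCLM, the modifier subunit of glutamate-cysteine ligase, had 517.6 ± 2.03 CPM in PTPRZ-Si and 376.5 ± 4.01 CPM in PTPRZ-nc (SD, n = 3 each; log2 fold change 0.46, SE 0.0358, edgeR adjusted p = 6.11e-08). GSR, which reduces oxidised glutathione, rose by 0.53 (SE 0.0416, edgeR adjusted p = 6.12e-08). SLC7A11, the cystine importer whose loss leads to ferroptosis, rose less, with 610.5 ± 8.28 CPM in PTPRZ-Si and 550.4 ± 19 CPM in PTPRZ-nc (0.15, SE 0.0373, edgeR adjusted p = 0.00623). CHAC1, which degrades glutathione, rose too (0.39, SE 0.0519, edgeR adjusted p = 2.3e-05). GCLC (0.07, edgeR adjusted p = 0.313) and GSS (0.04, edgeR adjusted p = 0.676), named after their values were seen, did not pass. SLC7A11-AS1 shares 8.97% of the exon bases of SLC7A11 and had 280 counts over the 6 libraries.

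Genes listed for defences parallel to GPX4 moved both ways. Of 14 listed genes other than AIFM2, 4 rose, 2 fell and 8 did not pass, where 27.4% of all tested genes were called. The 4 rises include DHCR7, named after its value was seen (0.42, SE 0.0786, edgeR adjusted p = 0.00061). DHCR7, a sterol reductase, is in the list but is not itself a defence. TXNRD1, a thioredoxin reductase and itself a selenoprotein, rose by 0.66 (SE 0.03, edgeR adjusted p = 1.13e-10), NQO1, another quinone reductase, by 0.36 (SE 0.0345, edgeR adjusted p = 6.87e-07) and STARD7, which carries ubiquinone to the plasma membrane, by 0.26 (SE 0.0443, edgeR adjusted p = 0.000316). COQ2, of ubiquinone synthesis, fell to 29.18 ± 1.7 CPM in PTPRZ-Si, against 37.41 ± 1.22 CPM in PTPRZ-nc (SD, n = 3 each; log2 fold change -0.35, SE 0.0708, edgeR adjusted p = 0.00118). MBOAT1, a lysophospholipid acyltransferase, fell to 8.565 ± 0.232 CPM, against 13.07 ± 1.48 CPM in PTPRZ-nc (-0.62, SE 0.117, edgeR adjusted p = 0.000789). AIFM2 was thus higher while COQ2 was lower, but the other listed genes of ubiquinone synthesis did not pass. These, named after their values were seen, were PDSS1 (log2 fold change 0.22, edgeR adjusted p = 0.369), PDSS2 (-0.24, edgeR adjusted p = 0.113) and COQ6 (-0.09, edgeR adjusted p = 0.744).

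Of 9 genes listed for the synthesis of selenoproteins such as GPX4, 3 rose, 1 fell and 5 did not pass, where 27.4% of all tested genes were called. Of the 3 rises only SEPHS2 is an enzyme of that synthesis, and its call was not stable. LRP8, a receptor that takes up selenoprotein P, rose by 0.31 (SE 0.0522, edgeR adjusted p = 0.000257). SELENOI, itself a selenoprotein of phospholipid synthesis, rose by 0.30 (SE 0.0478, edgeR adjusted p = 0.000139). SEPHS2, which makes selenophosphate, rose by 0.17 (SE 0.0511, edgeR adjusted p = 0.022), but its edgeR adjusted p was 0.0963, 0.0975, 0.0633 and 0.0905 without PTPRZ-Si replicate 2, PTPRZ-Si replicate 3, PTPRZ-nc replicate 1 and PTPRZ-nc replicate 3, in a range of 0.00428 to 0.0975. SEPSECS, which completes the selenocysteine tRNA, fell by 0.45 on the log2 scale (SE 0.0921, edgeR adjusted p = 0.00145).

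Around ACSL4, genes listed for lipids that promote or resist peroxidation included more rises than falls. Of 21 other listed genes 17 were tested, 8 rose, 1 fell and 8 did not pass. Of all tested genes 14% were higher and 13.4% lower, and of the 4900 well counted ones 22.9% and 21.2%. SCD, which makes the monounsaturated fatty acids that resist peroxidation, rose by 0.53 (SE 0.0339, edgeR adjusted p = 5.86e-09), and ACSL1 by 0.55 (SE 0.0413, edgeR adjusted p = 3.54e-08). POR, a reductase that can start lipid peroxidation, rose by 0.44 (SE 0.0447, edgeR adjusted p = 1.23e-06), while CYB5R1, another reductase with that activity, fell by 0.26 on the log2 scale (SE 0.0664, edgeR adjusted p = 0.00735). The desaturase FADS2 of polyunsaturated fatty acids, named after its value was seen, rose by 0.44 (SE 0.0568, edgeR adjusted p = 1.88e-05). The lipoxygenases ALOX5, ALOX12B, ALOX15 and ALOX15B had 5 to 27 counts over the 6 libraries and were not tested.

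Of 22 tested genes of mitochondrial iron 2 rose, 1 fell and 19 did not pass, where 27.4% of all tested genes were called. SLC25A37 (mitoferrin), which imports iron into mitochondria, had 163.7 ± 5.53 CPM in PTPRZ-Si and 127.1 ± 4.64 CPM in PTPRZ-nc (SD, n = 3 each; log2 fold change 0.36, SE 0.0471, edgeR adjusted p = 1.79e-05). ALAS1, the first enzyme of heme synthesis, rose by 0.30 (SE 0.0638, edgeR adjusted p = 0.00196). FDX1, a ferredoxin, fell by 0.27 on the log2 scale (SE 0.0791, edgeR adjusted p = 0.016), with an edgeR adjusted p of 0.0749 without PTPRZ-Si replicate 3, in a range of 0.0122 to 0.0749.

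Genes listed for an iron responsive element did not move one way. Among them SLC11A2, FTL, CDC42BPA and HIF1A rose, TFRC, EPAS1 and CDC14A fell, and FTH1 did not pass. CDC42BPA, a kinase, rose by 0.36 (SE 0.0462, edgeR adjusted p = 1.78e-05). CDC14A, a phosphatase, fell by 0.41 on the log2 scale (SE 0.144, edgeR adjusted p = 0.0438) and passed in 7 of 14 alternatives; its edgeR adjusted p was 0.144, 0.134, 0.099 and 0.107 without PTPRZ-Si replicate 1, PTPRZ-Si replicate 2, PTPRZ-nc replicate 1 and PTPRZ-nc replicate 3, in a range of 0.0242 to 0.144. HIF1A was put in the list but is not an established carrier of the element, and it had no match to the pattern. Of the listed genes the 3' matches were in TFRC and, in 1 of 12 coding transcripts, CDC14A, which both fell. Of those with a 5' match FTL rose, FTH1 did not pass, and SLC40A1 and ALAS2 were not tested. No match was found in SLC11A2 and CDC42BPA, which rose, or in EPAS1, which fell. The matches thus cover only part of the list and few tested genes at either end. Whether an end of the mRNA goes with a direction was not tested.

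Regulators and response genes of ferroptosis moved both ways as well, with 5 of 17 higher, 4 lower and 8 not passed. Of all tested genes 27.4% were called, and of the 4900 well counted ones 44.1%. CDKN1A rose by 0.15 (SE 0.0369, edgeR adjusted p = 0.00459). FANCD2 of DNA repair fell by 0.37 on the log2 scale (SE 0.0688, edgeR adjusted p = 0.000714). The chaperone HSPA5 fell by 0.16 on the log2 scale (SE 0.0457, edgeR adjusted p = 0.0147), with 0.0658 without PTPRZ-Si replicate 1, the highest of a range from 0.000374. CHMP5, of membrane repair, fell by 0.15 on the log2 scale (SE 0.0449, edgeR adjusted p = 0.0173), with 0.0576, 0.0988 and 0.0575 without PTPRZ-Si replicate 1, PTPRZ-Si replicate 3 and PTPRZ-nc replicate 1, in a range of 0.00717 to 0.0988. PTGS2, often read as a marker of ferroptosis and named after its value was seen, fell to 2.474 ± 0.247 CPM in PTPRZ-Si, against 5.229 ± 0.437 CPM in PTPRZ-nc (SD, n = 3 each; log2 fold change -1.08, SE 0.189, edgeR adjusted p = 0.000386).

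**Figure D4:**
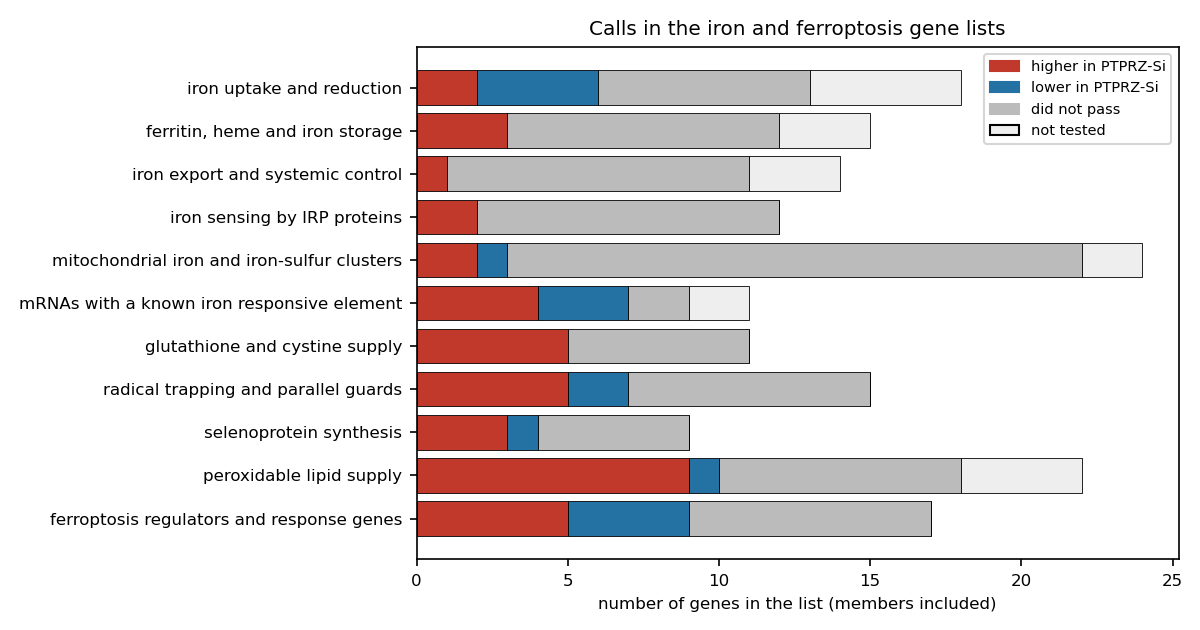
Number of genes in each of 11 lists (horizontal axis, the 10 genes included where they belong to a list) that were higher in PTPRZ-Si, were lower in PTPRZ-Si, did not pass or were not tested. Falls outnumber rises in iron uptake and reduction alone (2 higher and 4 lower), and peroxidable lipid supply has 9 higher and 1 lower.

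**Figure D5:**
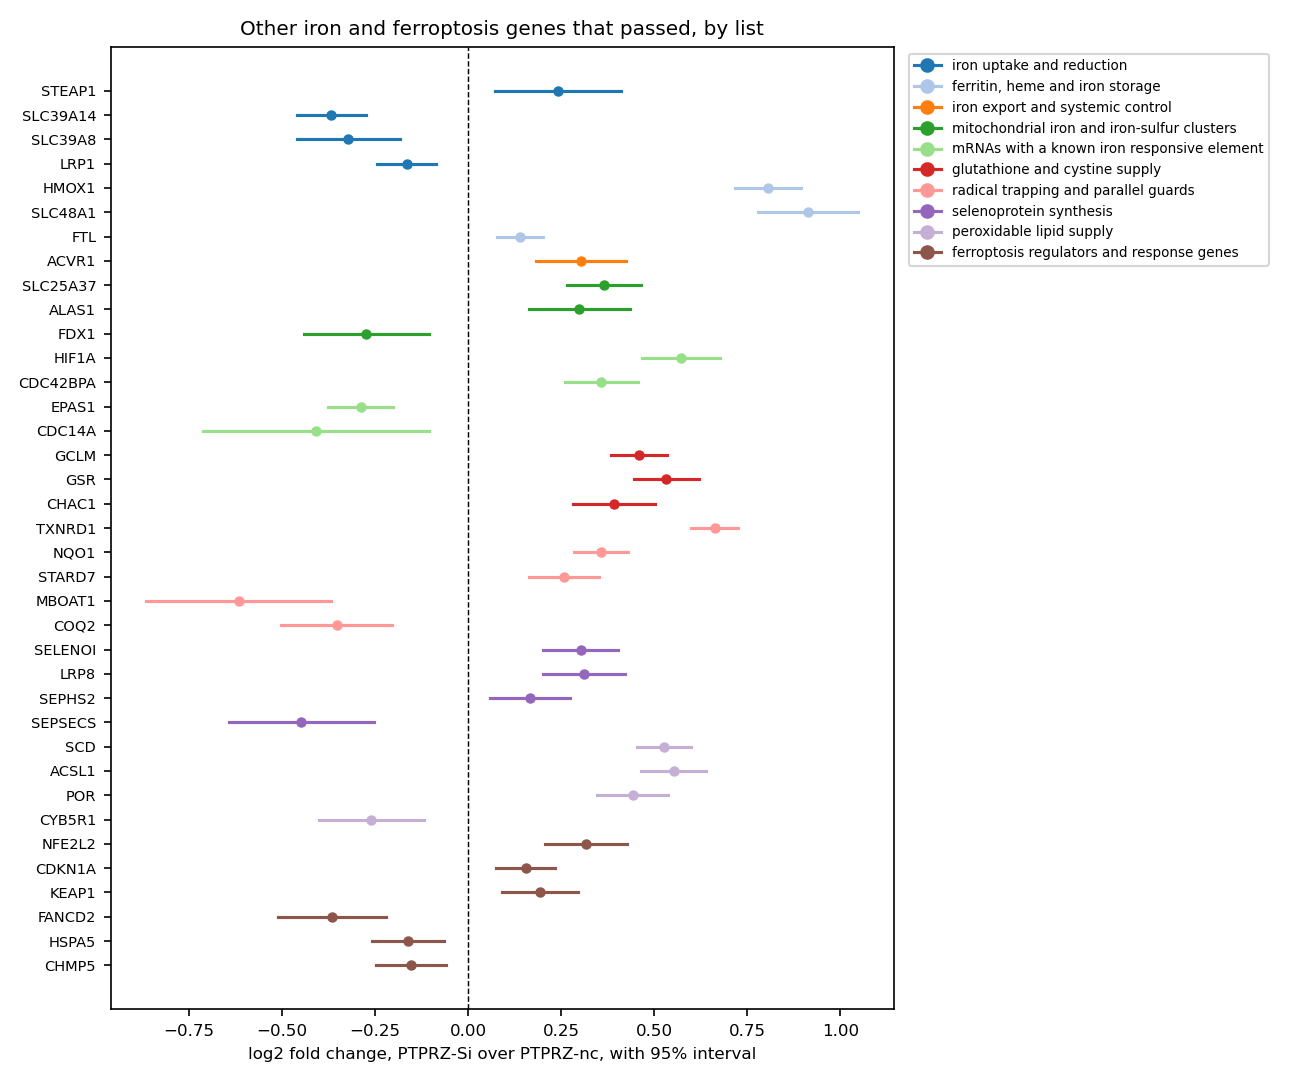
Log2 fold change, PTPRZ-Si over PTPRZ-nc, with 95% intervals from edgeR (not adjusted for the number of genes), of the genes of each list with the smallest p in each direction. Of the genes drawn, HMOX1 and SLC48A1 lie farthest to the right at 0.81 and 0.91, and MBOAT1 farthest to the left at -0.62. PTGS2 fell more (-1.08) but averaged less than 5 CPM and is not drawn.

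Over all lists, of the genes outside the 10, 33 rose, 14 fell, 89 did not pass and 17 had too few counts, against 27.4% called among all tested genes and 44.1% among the 4900 well counted ones. Some of the untested genes, such as HMOX2 with 3 counts and CISD3 with 2 over the 6 libraries, are used by most cells, so a gene near 0 in this table is not shown to be silent. For IREB2, which had the smallest p of the 9 genes, the 3 genes with the most similar log2 CPM over the 6 libraries, of 11017 compared, were TERF1 (Pearson r = 0.999), SEPTIN11 (r = 0.9986) and PLXDC2 (r = 0.9986). With 6 libraries in 2 groups such values are common, and 701 genes had an r above 0.95.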

How the data were processed

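Per the labels' protocols, RNA of A498 cells was made into libraries with a directional NEBNext kit. The authors deposited raw counts per gene. The file headers name featureCounts 2.0.1 with paired reads, Ensembl release 107 of GRCh38 and alignment names that contain hisat; no aligner version was found, and the submitters' processing notes name hg38. The recorded command sets no option for strand or for reads placed at several genes or sites, so overlapping genes are not separated by strand and genes with near-identical copies are under-counted.

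Groups and replicate numbers came from the labels. Exon lengths and coordinates are those of GENCODE 29. After filterByExpr (15476 genes kept, 99.82% of counts) and TMM scaling (factors 0.9936 to 1.009), edgeR 4.0.16 in R 4.3.3 was used (glmQLFit, then a 2-sided glmQLFTest), and p-values were adjusted over every tested gene by Benjamini-Hochberg, with calls at 0.05. The standard error is the fold change over the square root of F. TPM came from counts and exon lengths. Intervals cover 95%, and floors, at 3 counts, cover counting error only. No pair of libraries within a group was alike to sampling noise (chi-square over its degrees of freedom 2.19 to 6.23). Alternatives were DESeq2 1.42.0, limma-voom (limma 3.58.1), other scalings and filters, a replicate block and left-out libraries.

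The 10 genes and the lists were chosen with earlier results of these data known. Named genes are the 10, PTPRZ1, FTH1, FTL, HMOX1 and SLC7A11, the 3 called genes of lowest p per list and direction that averaged 5 CPM or more, and untested genes, unless said otherwise. No test of a list was made.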

Additional observations from a re-analysis of the deposited data

How the results depend on the processing

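The number of genes that passed among the 9 was 7 under each of the 7 alternatives of scaling, filter, tool and replicate block and without both libraries numbered 2, and 6 to 7 when 1 library was left out; TFRC and ACSL4 were the genes lost. Of 126 values of the 9 genes under 14 alternatives, 121 kept direction and side of the threshold and 4 lost the call. NCOA4 changed sign without PTPRZ-nc replicate 2 (0.0068, edgeR adjusted p = 0.925), in a range of -0.0512 to 0.0068 with 1 library left out, and passed in none of its 14 alternatives; the cause was not tested. Of 546 values of the other 39 named genes, 521 stayed, 23 lost the call and 2 gained it. FTH1 passed with no filter on low counts (0.16, edgeR adjusted p = 0.000158) and with the replicate block (0.19, edgeR adjusted p = 0.0266). Over all genes, 3182 to 4425 were called with 1 library left out, and DESeq2 called 3455. The median log2 fold change of all genes lay between -0.0103 and 0.0018 over the alternatives, those that left out a library included.

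The list of ferritin, heme and storage gave 5 calls with no filter and 5 with the replicate block, against 3. Mitochondrial iron gave 5 with no filter, against 3, and iron export gave 2 without both libraries numbered 2, against 1. The cause was not tested. Same-numbered libraries did not deviate together (correlations of deviations from group means over 11018 genes of 0.028, 0.062 and -0.038 for numbers 1, 2 and 3), so the numbers were not taken as pairs. With the block 4101 genes were called, against 4243 without it. SLC40A1 and PTPRZ1 had too few counts to be tested.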
